A study of Zea mays with 157 samples.

Results

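The genes described here carried transcript in nearly every tissue of the maize inbred Mo17 and almost none in any tissue of the inbred B73. They were chosen from 11637 genes that the deposited list pairs between the 2 genomes. A gene was taken when its deposited mRNA value was 1 or more in at least 20 of the 26 Mo17 tissues and below 0.1 in all 26 B73 tissues, and 10 genes met both conditions. The B73 and Mo17 values that chose them are therefore given as a description, without a test. Of the 5910 paired genes that met the Mo17 condition alone, the 10 were 0.169%. With the lines exchanged, the same rule found 4 genes.

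The series measured mRNA and circular RNA in 26 tissues of B73, of Mo17 and of the F1 hybrid of B73 and Mo17, all 3 without any named transgene or agent. Plants grew in a greenhouse at 25 °C with 12 h of light and 12 h of dark, and none received a special treatment. Each library was described as a pool of 3 RNA preparations, each from 5 to 10 plants. There was thus 1 listed mRNA library per line and tissue, 78 in all, and the spread between plants is not given. The tissues were grouped by their labels into 11 leaf tissues, 9 meristem and inflorescence tissues and 6 tissues of root, stem and kernel. In such bulk samples, fewer cells that express a gene and less RNA per cell cannot be told apart. The tissue labels were not checked against marker genes, because no table used here pairs the gene identifiers with names. Genes are given by identifier for the same reason, and no function is given for any of them.

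Maize inbreds differ widely in gene content and in which of their genes are transcribed, so that a gene can be expressed in one line and silent, or missing, in another. A hybrid receives 1 copy from each parent. Where a single parental copy is active and is regulated as it was in that parent, the transcript level of the hybrid lies midway between the parents, at the mid-parent value, and the hybrid expresses the gene although one parent does not. Levels above or below the mid-parent value are called non-additive.

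Levels below are deposited values divided by 1 scaling factor per library, called scaled units. The F1 value of a paired gene behaved as the mean of a B73-side and a Mo17-side value. Of the F1 values of paired genes, 99.6% were whole multiples of 1/6 of the last decimal unit and 52.4% were multiples of 1/3, where 99.2% of the parental values were multiples of 1/3. An F1 level at 0.5 of the Mo17 level can therefore hold a Mo17-side value as high as that of Mo17 itself, and the tables do not show how F1 reads were split between the parental copies. Multiples of 1/3 in the parental values are what a mean of 3 values would give, and whether they are such means was not tested. The 2 Mo17 libraries labelled as the tip of the stage 2 leaf stood apart. Between their L and N versions, 9 of the 10 genes differed in the opposite direction from F1, against 0 at the first leaf, 3 at the base and 6 at the topmost leaf. Some of the 9 differed little in Mo17, with log2 differences of 0.004 for Zm00014a027857, 0.037 for Zm00014a014818 and 0.057 for Zm00014a002548. Whether the L and N labels of the Mo17 tip pair were exchanged was not tested. Values without the tip libraries are given beside several results that they move.

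In B73, 4 of the 10 genes had no row in the mRNA table and were read as 0, since the table lists no gene that is 0 in every tissue. These were Zm00014a008595, Zm00014a009731, Zm00014a037697 and Zm00014a002548, paired with the B73 identifiers Zm00001d038947, Zm00001d009711, Zm00001d020779 and Zm00001d021284. The other 6 had a listed row with values close to 0. Zm00014a040784 (B73 identifier Zm00001d039762) was above 0 in 14 B73 tissues, with a highest deposited value of 0.0327. Zm00014a014818 (Zm00001d018228) was above 0 in 12 tissues and reached 0.0413. Traces were thus spread over many B73 tissues for these 2 genes. Zm00014a020430 (Zm00001d045775) was above 0 in 6 tissues and had the highest B73 value of the set, 0.0820 in 2mmear. Zm00014a028020 (Zm00001d034083) was above 0 in 2 tissues, up to 0.0369. Zm00014a027857 (Zm00001d048699) and Zm00014a015822 (Zm00001d049882) were each above 0 in 1 tissue, at 0.0617 and 0.0172.

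Both thresholds had genes close by. The nearest genes past the B73 limit, Zm00014a018792, Zm00014a044334 and Zm00014a003624, reached 0.101, 0.114 and 0.171 in B73. On the Mo17 side, Zm00014a015822 met the rule with exactly 20 tissues and Zm00014a037697 with 22, whereas Zm00014a031139 and Zm00014a005714, with B73 at 0 throughout, had 17 and 16.

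**Figure D1:**
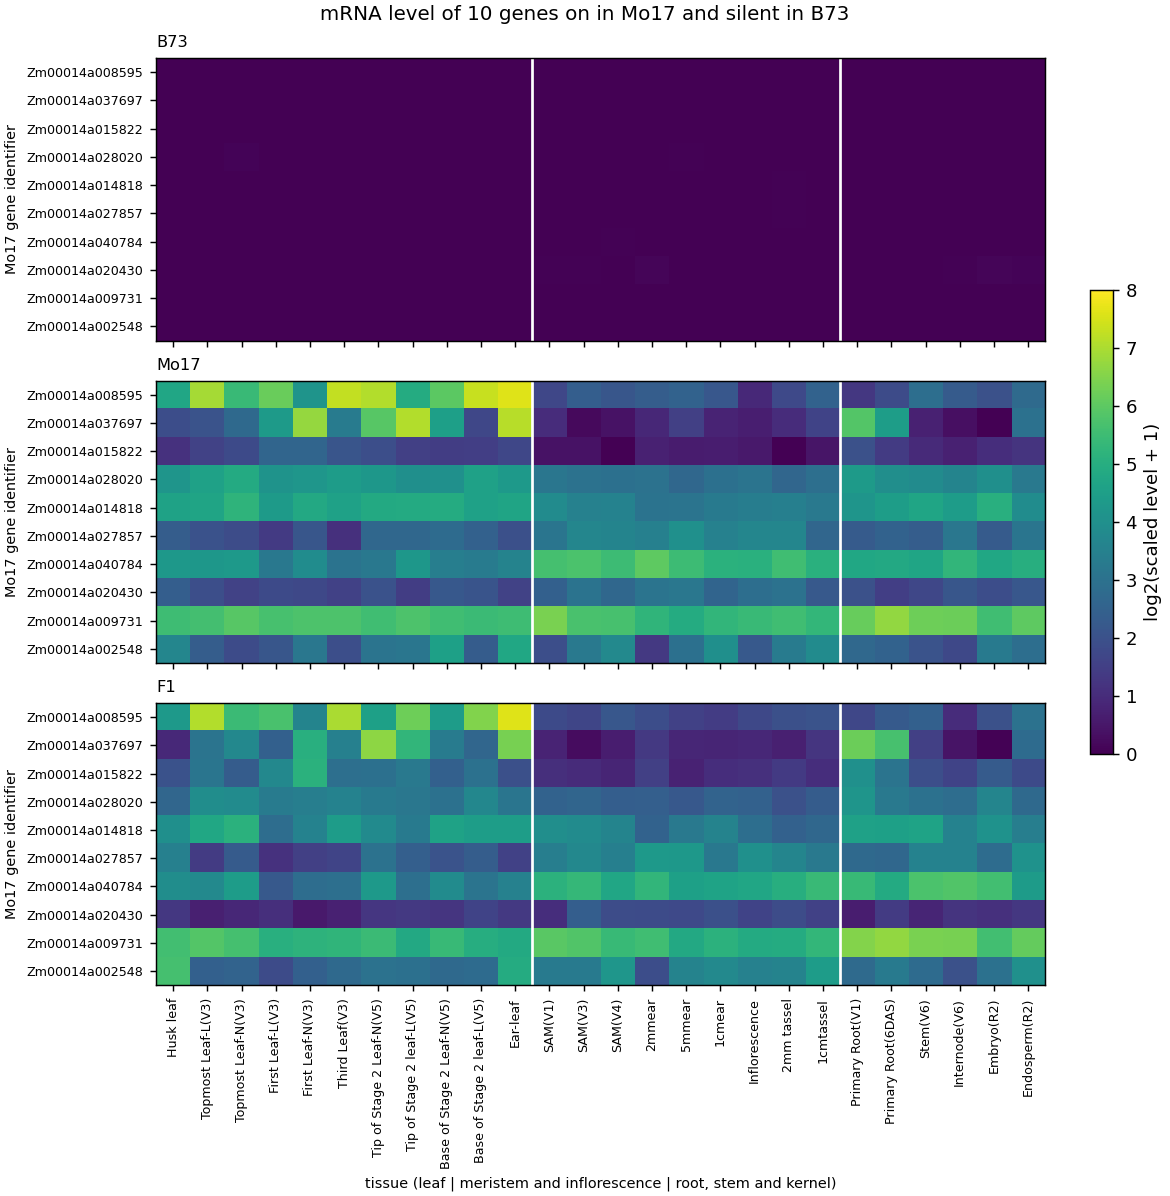
mRNA level, as log2(scaled level + 1) in colour, of the 10 genes (lines of each panel, by Mo17 identifier) in 26 tissues (columns, in 3 organ classes split by white lines) of B73, Mo17 and F1, 1 pooled library per cell. The B73 panel is dark throughout, as the selection requires, while the Mo17 and F1 panels show the same bright leaf block for Zm00014a008595, which reached 195 scaled units in the ear leaf of both.

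The 10 genes differed widely in level in Mo17. Zm00014a009731 was the highest by median and among the most even. Its Mo17 level ran from 29.1 scaled units in 5mmear through a median of 48.5 to 102 in the 6DAS primary root, and its F1 level from 27.1 in the leaf tip labelled L through 41.7 to 103 in the same root. The ranges of the 2 lines overlapped almost fully, and both were highest in the same root library. Zm00014a040784 ran from 7.23 in the third leaf through 26.3 to 63.2 in 2mmear of Mo17, and from 3.75 in First Leaf-L through 23.3 to 56.4 in the internode of F1. Zm00014a014818 ran from 7.24 through 20.5 to 36.01 in Mo17 and from 4.55 through 13.3 to 33.8 in F1, with both maxima in Topmost Leaf-N. Both genes had a lower median in F1, and the ranges of the lines overlapped over most of their span. Zm00014a028020 ran from 5.18 through 14.6 to 28.4 in Mo17 and from 2.93 through 6.89 to 17.2 in F1, and both minima lay in 2mm tassel.

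The remaining 6 genes had Mo17 medians below 10 scaled units. Zm00014a002548 ran from 1.499 through 6.58 to 26.1 in Mo17 and from 2.59 through 6.95 to 48.8 in F1, where the husk leaf was the highest tissue. Zm00014a027857 ran from 1.17 through 5.30 to 15.04 in Mo17 and from 1.19 through 7.66 to 18.7 in F1, with an ear library on top in each line. Zm00014a020430 ran from 1.76 through 3.32 to 8.06 in Mo17 and from 0.475 through 1.44 to 4.20 in F1. Of these 3 genes, only Zm00014a020430 had an F1 median below the lowest Mo17 tissue. Zm00014a008595 ran from 0.881 through 5.28 to 195 in Mo17 and from 1.04 through 4.11 to 195 in F1. Zm00014a037697 was listed at 0 in the Mo17 embryo and ran through a median of 2.47 to 140 in the ear leaf, and in F1 it ran from 0.0368 in the embryo through 3.14 to 98.6. The highest F1 tissue of Zm00014a008595 was 187 times its lowest, and the embryo was the lowest library of Zm00014a037697 in each line. Zm00014a015822 was listed at 0 in SAM(V4) and 2mm tassel of Mo17, with a median of 1.25 and a highest level of 5.11, and ran from 0.684 through 2.96 to 33.2 in F1. First Leaf-N was its highest tissue in each line.

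Every one of the 10 genes was above 0 in all 26 F1 tissues. At a deposited value of 1 or more, 7 were found in all 26 F1 tissues and 9 in at least 20. Zm00014a020430 was the exception, with 16 tissues. Among 5296 genes that met the same condition in both parents, 99.4% met it in F1, so a broad presence in F1 is also what genes active in both parents show.

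The F1 level relative to Mo17 varied between genes. As the ratio of medians over tissues it ran from 0.435 for Zm00014a020430 to 2.38 for Zm00014a015822, with a median of 0.873 over the 10 genes. It lay above 0.5 for 8 genes and above 1 for 4. Among the 5296 genes that met the condition in both parents, it lay above 0.5 for 5273 and above 1 for 2469. Zm00014a028020 had a ratio of 0.472, Zm00014a014818 of 0.647, Zm00014a008595 of 0.779, Zm00014a009731 of 0.860 and Zm00014a040784 of 0.886. Just above 1 lay Zm00014a002548 with 1.06 and Zm00014a037697 with 1.27, and Zm00014a027857 had 1.44. These ratios rest on the scaling. With values as deposited they were 0.722 for Zm00014a037697, 0.508 for Zm00014a008595 and 0.294 for Zm00014a020430, the 3 largest relative shifts. Zm00014a002548 then stood at 0.905, also below 1. Without the tip libraries, over 24 tissues, Zm00014a037697 had 0.780, and the other genes ran from 0.420 to 2.52.

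Tissue by tissue, 2 genes set the ends of the range. Zm00014a015822 was higher in F1 than in Mo17 in 26 of 26 tissues, and in the 24 tissues with a Mo17 value above 0 the ratio ran from 1.28 in 5mmear to 6.49 in First Leaf-N. Zm00014a020430 and Zm00014a028020 were above the Mo17 level in 0 of 26 tissues. Their ratios reached at most 0.926 and 0.872. The other 7 genes crossed the Mo17 level, lying above it in 8 to 19 of the 26 tissues. The ratio was steadiest for Zm00014a009731, from 0.508 to 1.29 (from 0.628 without the tip libraries), and spread most for Zm00014a002548, from 0.257 in the N library of the leaf base to 4.17 in the husk leaf. Zm00014a008595 ran from 0.168 in the tip library labelled N to 2.65 in the inflorescence, and without the tip libraries its lowest ratio was 0.269, in the internode.

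**Figure D2:**
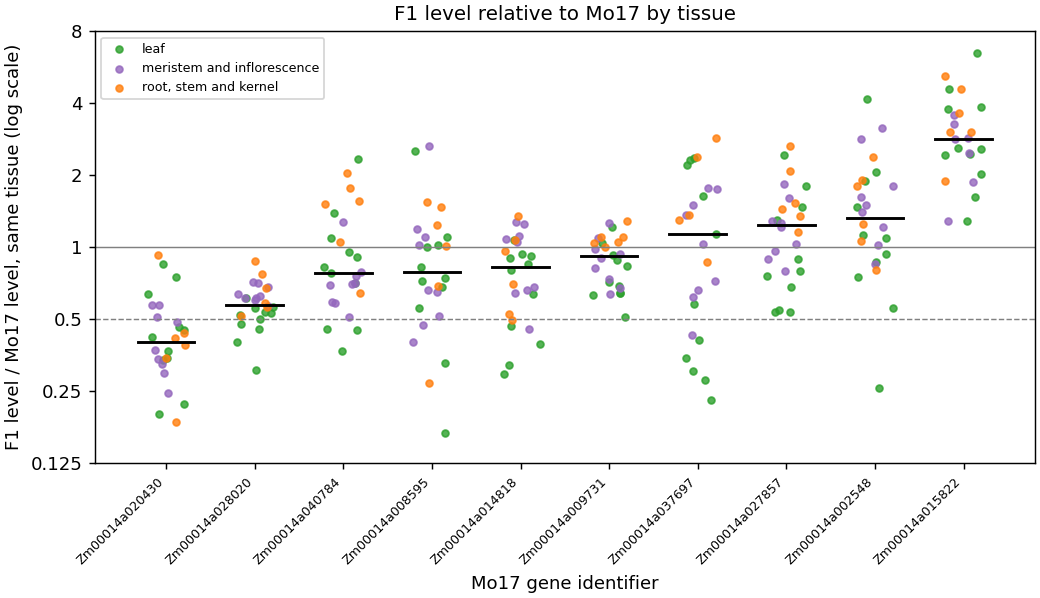
Ratio of the F1 to the Mo17 level in the same tissue (log axis) for each gene, 1 point per tissue coloured by organ class, with the median over tissues as a black bar. Grey lines mark 1 (solid) and 0.5 (dashed). 2 tissues of Zm00014a015822 and 1 of Zm00014a037697 have a Mo17 value of 0 and no point. All points of Zm00014a015822 lie above 1, and all points of Zm00014a020430 and Zm00014a028020 lie below 1.

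Against the mid-parent value, the mean of the B73 and Mo17 levels in the same tissue, F1 was higher in most tissues for 9 of the genes. How F1 reads were split between the parental copies is not shown, and the F1 value may hold a B73-side part. Whether these levels were non-additive was therefore not tested. The mid-parent value holds the values that chose the genes, so the comparison is a description. Zm00014a027857, Zm00014a015822 and Zm00014a009731 were above it in 26 of 26 tissues, Zm00014a002548 in 25, Zm00014a040784 in 23, Zm00014a028020 and Zm00014a008595 in 21, and Zm00014a014818 and Zm00014a037697 in 20. Zm00014a020430 was above it in 7. The mean log2 difference over tissues, on the log2(scaled + 1) scale, was 1.45 (SE 0.130) for Zm00014a015822, 1.12 (SE 0.133) for Zm00014a002548, 0.96 (SE 0.103) for Zm00014a027857 and 0.78 (SE 0.0684) for Zm00014a009731. Smaller differences were found for Zm00014a040784, at 0.75 (SE 0.121), and for Zm00014a014818, Zm00014a037697 and Zm00014a008595, at 0.52, 0.51 and 0.50. Zm00014a028020 stood at 0.16 (SE 0.0513) and Zm00014a020430 at -0.17 (SE 0.0618). With values as deposited the mean difference was -0.14 for Zm00014a028020, and the tissues above the mid-parent value, counted as those above 0.5 of the Mo17 value, numbered 7 for Zm00014a028020, 15 for Zm00014a014818 and 4 for Zm00014a020430, and 18 to 26 for the other 7 genes. At an adjusted limma threshold of 0.05 with tissue as a block, 9 of the 10 genes lay above and 0 below, beside 4.31% and 7.71% of 9547 paired genes. Since values that chose the genes enter the mid-parent value, nothing is read from this count. It was 4 without the block and 5 with values as deposited, beside 1.95% and 4.14% of paired genes.

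Among the genes that met the Mo17 condition, the median ratio of the F1 level to the mid-parent value fell across classes of rising highest B73 value. The classes are cut on B73 values that the rule used, and these values enter the mid-parent value, so this is a description. For the 10 genes, the median ratio of the F1 level to the mid-parent value was 1.75. It was 1.29 for 13 genes whose highest B73 value was 0.1 to below 0.5, 1.07 for 12 genes at 0.5 to below 1, and 0.979 for the 5875 genes at 1 or more. The median ratio of F1 to Mo17 in these classes was 0.873, 0.655, 0.547 and 0.978. In the classes below 1, single genes ran from 0.435 to 2.38, from 0.381 to 1.03 and from 0.325 to 1.05, so these classes overlapped. For the 4 genes on in B73 and silent in Mo17, the ratio of the F1 to the B73 median was 0.339, 0.789, 0.846 and 0.652, for Zm00001d031303, Zm00001d042960, Zm00001d009738 and Zm00001d052153. On deposited values these ratios were 0.546, 0.906, 1.08 and 0.782. The ratios of the 10 genes and of the 4 overlapped on the scaled values, from 0.435 to 0.846.

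The organ profile in F1 was tested, since F1 values were not used to choose the genes. Leaf was higher than meristem and inflorescence for 5 genes and lower for 3 in limma with Benjamini-Hochberg adjustment over 41144 F1 features. Over all features, 35.3% were higher in leaf and 38.5% lower, so the count in each direction is not a mark of the set. The libraries of both organs did not overlap for 4 genes, against 31.6% of all features. Each p-value rests on the spread between tissues of an organ.

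The largest leaf differences belonged to Zm00014a008595 and Zm00014a037697. In F1, Zm00014a008595 stood between 11.2 and 195 scaled units in the 11 leaf tissues, with a median of 51.4, and between 1.67 and 3.46 in the 9 meristem and inflorescence tissues, with a median of 2.50. Its lowest leaf lay above its highest meristem library. The difference was 3.88 on the log2(scaled + 1) scale (SE 0.422, limma adjusted p = 6.12e-08). Zm00014a037697 stood between 0.915 and 98.6 in leaf, median 10.2, and between 0.202 and 1.504 in meristem, median 0.759. Only its lowest leaf tissue fell within the meristem range, and the log2 difference was 3.07 (SE 0.557, limma adjusted p = 5.02e-05).

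Zm00014a015822 was between 2.86 and 33.2 in F1 leaf, median 6.73, and between 0.684 and 1.87 in meristem, median 1.05. The organs did not overlap, with a log2 difference of 1.90 (SE 0.294, limma adjusted p = 7.08e-06). Zm00014a028020 was between 5.18 and 14.03 in leaf, median 9.11, and between 2.93 and 5.09 in meristem, median 4.40. Leaf was again above every meristem library, although by a narrow margin, and the log2 difference was 0.97 (SE 0.149, limma adjusted p = 6.74e-06). Zm00014a014818 was between 6.29 and 33.8 in leaf, median 20.5, and between 4.55 and 14.5 in meristem, median 8.42. Its organs overlapped, with a log2 difference of 0.92 (SE 0.276, limma adjusted p = 0.00540). For Zm00014a028020 and Zm00014a014818 the direction rests on the scaling. With values as deposited their log2 differences were -0.40 and -0.54, and the median of all F1 features shifted by -1.22.

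Of the genes lower in leaf, Zm00014a040784 was between 3.75 and 20.4 in F1 leaf, median 10.4, and between 22.6 and 41.7 in meristem, median 31.5. Every meristem library lay above every leaf library, and the log2 difference was -1.55 (SE 0.241, limma adjusted p = 7.90e-06). Zm00014a027857 was between 1.19 and 10.1 in leaf, median 3.16, and between 8.28 and 18.7 in meristem, median 11.4. The organs overlapped slightly at the top of the leaf range, with a log2 difference of -1.62 (SE 0.262, limma adjusted p = 1.32e-05). Zm00014a020430 was between 0.475 and 2.08 in leaf, median 1.33, and between 1.09 and 4.20 in meristem, median 2.56. Its organs overlapped over a wider stretch, and the log2 difference was -0.67 (SE 0.160, limma adjusted p = 0.000828).

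No organ difference passed the test for the last 2 genes. Zm00014a009731 had a mean of 38.7 ± 9.57 over the F1 leaf tissues (SD, n = 11) and of 39.97 ± 12.1 over the meristem and inflorescence tissues (SD, n = 9), a log2 difference of -0.03 (SE 0.167). Zm00014a002548 averaged 11.4 ± 14.4 in leaf and 11.4 ± 5.15 in meristem, a log2 difference of -0.40 (SE 0.413). Leaf values of Zm00014a002548 reached 48.8 in the husk leaf and fell to 2.59 in First Leaf-L, which is wider than its meristem range of 2.71 to 20.4. With values as deposited both genes were lower in leaf, with log2 differences of -1.59 and -1.78 that passed the limma test.

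**Figure D3:**
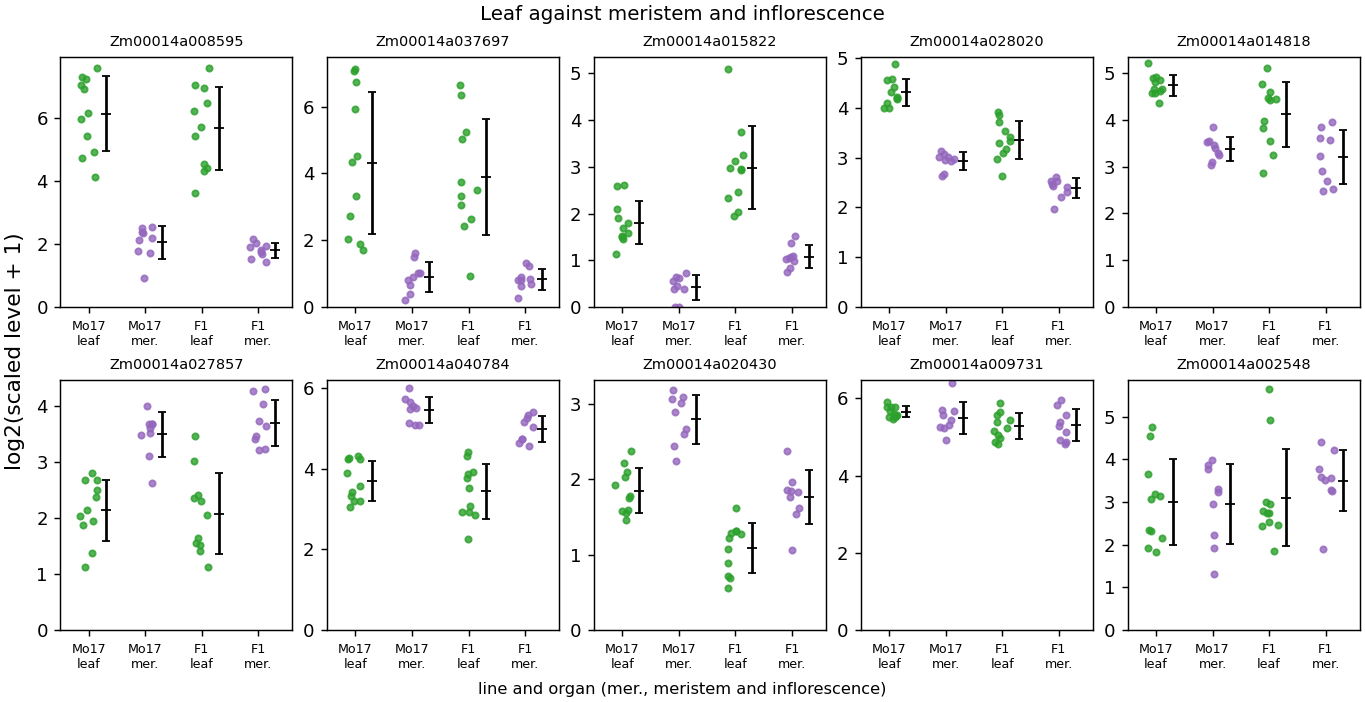
mRNA level, as log2(scaled level + 1), in the 11 leaf tissues (green) and the 9 meristem and inflorescence tissues (purple) of Mo17 and F1, 1 panel per gene with its own axis from 0. Points are libraries, and bars give the mean and SD over tissues on that log2 scale. The leaf mean lies above the meristem mean in both lines in the first 5 panels and below it in the next 3. The means lie closest in the last 2. Points of the 2 organs overlap in some panels of each kind.

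In Mo17 the organ differences, given as a description because Mo17 levels entered the rule, had the same direction for the 8 genes called in F1. At the same limma threshold 5 genes were higher and 3 lower in leaf, beside 73.4% of the 24372 Mo17 features in either direction, and nothing is read from this count. The organs did not overlap for 6 of the 10, against 32.5% of features. The log2 differences were 4.09 for Zm00014a008595, 3.41 for Zm00014a037697, 1.39 for Zm00014a015822, 1.38 for Zm00014a028020 and 1.36 for Zm00014a014818. They were -1.76 for Zm00014a040784, -1.35 for Zm00014a027857 and -0.95 for Zm00014a020430. With values as deposited, 3 genes were higher and 5 lower, beside 13.1% and 71.3% of features. Zm00014a028020 and Zm00014a014818 again turned negative, at -0.17 and -0.24.

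The organ difference in F1 minus that in Mo17 holds Mo17 values that entered the rule, and it too is a description. Zm00014a028020 had a value of -0.41 on the log2 scale (SE 0.105), with a smaller leaf to meristem difference in F1 than in Mo17. In scaled units, Mo17 stood at 19.2 ± 4.07 in leaf and 6.67 ± 0.883 in meristem, and F1 at 9.58 ± 2.77 and 4.27 ± 0.671 (SD, n = 11 and 9). The difference was -0.23 with values as deposited. For the other 9 genes it ran from -0.44 for Zm00014a014818 (SE 0.239) to 0.51 for Zm00014a015822 (SE 0.222), and without the tip libraries from -0.39 for Zm00014a002548 to 0.47 for Zm00014a015822, with Zm00014a014818 at -0.28. At an adjusted limma threshold of 0.05 with tissue as a block, 1 of the 10 genes was past it, Zm00014a028020, beside 7.48% of 8879 paired genes in either direction. It was not past it with values as deposited, after quantile normalization, with a pseudocount of 0.1 or without the block.

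Over all 26 tissues, the F1 profile of each gene followed its Mo17 profile. Spearman's rho between the lines ran from 0.634 for Zm00014a020430 to 0.918 for Zm00014a037697, with a median of 0.758 over the 10 genes, against a median of 0.838 over the 5296 genes on in both parents. The values share scaled libraries and organ classes, and they are given as a description. Tau, a measure of tissue specificity that is 0 for equal levels in all tissues and 1 for a single tissue, was computed on log2 levels. In F1 it was lowest for Zm00014a009731 at 0.184 and highest for Zm00014a037697 at 0.636, followed by Zm00014a015822 at 0.590 and Zm00014a008595 at 0.561. In Mo17 these 4 genes had 0.153, 0.649, 0.566 and 0.519. The even gene was thus the same in both lines, as was the most specific one.

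The 10 genes had no profile in common. Among the 45 pairs, Spearman's rho over the 26 F1 tissues ran from -0.756 to 0.853 with a median of -0.07, and in Mo17 from -0.856 to 0.867 with a median of -0.04. Zm00014a028020 and Zm00014a015822 were the most alike pair in each line, with 0.853 in F1 and 0.867 in Mo17. Zm00014a015822 and Zm00014a037697 followed in F1 with 0.724.

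Zm00014a008595 and Zm00014a037697 differed in opposite directions between the leaf libraries whose labels end in L and in N, 4 pairs per line. The labels leave L and N without a meaning. In F1, Zm00014a008595 stood at 133 in Topmost Leaf-L and 42.8 in Topmost Leaf-N, at 51.4 and 11.2 in the first leaf, at 74.6 and 22.4 at the tip and at 88.8 and 20.3 at the base. L was higher at each of the 4 positions, by 1.62 to 2.10 on the log2(scaled + 1) scale. Zm00014a037697 stood at 7.36 and 12.4 in the topmost leaf, 4.42 and 31.9 in the first leaf, 37.1 and 98.6 at the tip and 5.26 and 8.97 at the base. N was higher at each position, with log2 differences of -0.69, -2.60, -1.39 and -0.67 in that order. A single direction in F1 was not particular to these genes. N was also higher at each position for Zm00014a040784, with -0.65, -0.61, -1.41 and -0.78. The same held for Zm00014a014818, with -0.36, -0.69, -0.57 and -0.15. The remaining genes had both signs in F1. In Mo17, Zm00014a008595 was higher in L at the topmost leaf, first leaf and base, by 1.501, 2.05 and 1.35, and lower at the tip, by -2.14. Zm00014a037697 was lower in L at those 3 positions, by -0.68, -2.38 and -2.81, and higher at the tip, by 1.13. Both genes thus turned at the tip pair of Mo17, and both are among the 9 genes already counted for that pair above. With 4 pairs a two-sided exact sign-flip test cannot go below p = 0.125, and none was run.

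**Figure D4:**
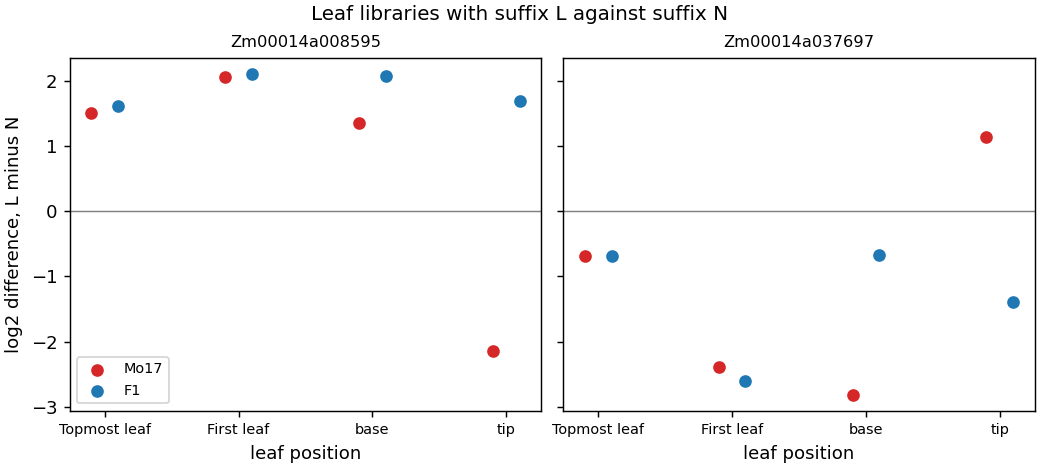
Difference between leaf libraries labelled L and N at 4 leaf positions, as L minus N of log2(scaled level + 1), for Zm00014a008595 and Zm00014a037697 in Mo17 (red) and F1 (blue), 1 pair of libraries per point. All F1 points of Zm00014a008595 are above 0 and all of Zm00014a037697 below 0, and the Mo17 tip is the single position on the other side for each gene.

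Circular RNAs, closed RNA rings whose reads cross a back-splice junction, are listed with their host gene and gave a readout that the selection did not use. Of the 10 Mo17 identifiers, 2 hosted a catalogued circRNA, against 64.4% of the 5910 paired genes that met the Mo17 condition. None of the 10 B73 identifiers did, against 68.7%. The rule held the B73 mRNA of these genes below 0.1 in every tissue, so a B73 count near 0 was set largely in advance. Nothing is read from the B73 count. The median Mo17 level was 5.94 scaled units for the 10 genes and 9.99 for the 5875 genes with a B73 value of 1 or more, and the part of this difference in the circRNA counts was not tested. Zm00014a014818 hosted 9 circRNAs, between 213632120 and 213634404 on chromosome 5 in Mo17 coordinates, of an assembly that the labels and headers leave unnamed. In Mo17, 3 of them were detected in 5 libraries at 0.0489 to 0.0774 RPM, and in F1, 8 were detected in 7 libraries at 0.0502 to 0.0850 RPM. None was detected in B73. Zm00014a040784 hosted 1 circRNA, between 15701741 and 15702381 on chromosome 3, found in F1 SAM(V1) at 0.0502 RPM. Every one of these values was within 1.08 times the smallest value above 0 of its library. The number of reads behind that smallest value is not shown. So close to the lowest listed level, differences between lines were not detectable.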

How the data were processed

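mRNA and circRNA tables of 26 tissues per line were joined through the deposited pair lists, and samples were grouped by line and tissue label. Mo17 mRNA values were taken to be TPM values that the authors deposited, since each library sums to between 1000010 and 1000070. The B73 and F1 mRNA values are in another unit that no header or label names (unit "other", as deposited by the authors). circRNA values are RPM, deposited by the authors. Tools named, without versions, in the submitters' processing notes are SAMtools, TopHat, HISAT and StringTie, and the build is B73 RefGen_v4. Read depth of the mRNA libraries is unknown, so no count test was run.

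Paired F1 values were multiples of 1/6 of the last decimal unit, as a mean of 2 values would be. Taken as such, the B73-side sum of paired genes in F1 was 0.988 times that of the B73 table (median over tissues, range 0.655 to 1.27). The Mo17-side sum of paired genes was 0.980 times that of the Mo17 table (range 0.569 to 1.14). A scaling factor was computed for each of the 78 mRNA libraries over 3695 paired genes at 1 or more in every library, as the median of the ratios between the library and the geometric mean of all libraries. The tables were normalized separately by the authors, so levels compared across lines depend on this scaling. Log2 values with a pseudocount of 1 were fitted in limma (version 3.58.1, R 4.3.3; mean-variance trend, features at 1 or more in at least 3 libraries, Benjamini-Hochberg adjustment at 0.05). Fold changes on that scale understate the change of low genes. The code was tested on simulated data.

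Comparisons of lines used the tissue as a block. Pairing comes from the tissue labels: deviations of the same tissue correlated at 0.734 or more between Mo17 and F1, and the own tissue was the best match in 23 of 26. Between B73 and Mo17 the lowest correlation was 0.680, with the own tissue best in 22 of 26. Between B73 and F1 it was 0.835, with 26 of 26. The named genes are all 10 members of the set. The members and lists were chosen with earlier results of these data known. Alternatives covered the thresholds, the scaling, the pseudocount, the filter, the block, the mid-parent definition, the averaging of L and N libraries and the Mo17 tip libraries. None of the 20 member identifiers matched the reference gene table. A table column named V3-leaf was taken as the third leaf, the V3 leaf label that no other column matched. Tables of 2 value columns that match no single labelled sample were not used.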

Additional observations from a re-analysis of the deposited data

Results flagged for a closer look

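The leaf to meristem difference of Zm00014a028020 was -0.41 on the log2 scale in F1 relative to Mo17, which lay past the adjusted limma threshold for a difference between the lines. Mo17 values that helped choose the gene enter this difference, so it is a description and not independent evidence. It was not past the threshold with values as deposited, after quantile normalization, with a pseudocount of 0.1 or without the tissue block.

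Zm00014a009731 reached 82.7 scaled units in SAM(V1) of Mo17, far above the next meristem or inflorescence library at 50.8. The gap was 0.595 of the range of the 9 tissues, past the limit of 0.493. The groups of 9 examined were 20, and chance alone passes that limit in about 1 of 20 groups. F1 SAM(V1) stood at 60.6, the highest of its 9 tissues.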

How the results depend on the processing

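Of 270 gene-level alternatives, 242 kept direction and side of the threshold, 12 lost their call, 6 gained one and 10 changed direction. The cause of these changes was not tested. The set held 23 genes with a B73 limit of 0.5, 6 when all 26 Mo17 tissues had to reach 1, and 6 when a B73 row had to be listed. It held 8 with a B73 limit of 0.05 and 13 with at least 15 Mo17 tissues. With the rule applied to scaled values it held 8 genes, all among the 10 described here. With values as deposited, leaf was higher for 3 and lower for 6 genes in F1, beside 14.6% and 68.9% of all F1 features. In Mo17 it was higher for 3 and lower for 5, beside 13.1% and 71.3% of all Mo17 features. The interaction was then called higher for 1 gene, Zm00014a020430, and lower for 0, beside 8.96% and 3.69% of paired genes. The mid-parent comparison gave 5 above and 1 below, beside 4.14% and 13.3% of paired genes. Counts on the interaction, the mid-parent and the Mo17 organs hold values that chose the genes and are descriptions. Directions that turned with deposited values were Zm00014a028020 (-0.40 in F1, -0.17 in Mo17, -0.14 against the mid-parent), Zm00014a014818 (-0.54 in F1, -0.24 in Mo17), Zm00014a009731 (-1.52 in Mo17) and Zm00014a002548 (-1.40 in Mo17). Deposited values shift the median organ difference of all features by -1.22 in F1 and -1.41 in Mo17. Quantile normalization gave -0.10 for Zm00014a009731 in Mo17. It gave 0 interaction calls, beside 7.72% of paired genes, and 1 gene below the mid-parent, beside 19.9%. A pseudocount of 0.1 gave 0 interaction calls, beside 7.12% of paired genes, and an interaction of -0.25 for Zm00014a015822. The mean of log2 parental values gave 0.22 for Zm00014a020430. Leaving out the Mo17 tip libraries put 1 gene below the mid-parent, beside 7.72% of paired genes. Without the replicate block of tissues, the interaction was called for 0 genes, beside 2.23% of paired genes. In that setting 4 genes were above the mid-parent, beside 1.95%. The highest single F1 row was not run as an alternative, because each pair has 1 F1 row. With 1 pooled library per tissue, no replicate could be left out. Scaling within a table was chosen after seeing the data and changed no call.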
